A study of Homo sapiens with 12 samples.

Results

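The 9 genes described here encode inhibitors that cells set against their own TGFβ and SMAD signalling: SMAD7, SMURF1, SMURF2, SKI, SKIL, TGIF1, PMEPA1, LDLRAD4 and BAMBI. They were taken by symbol from a table of 62703 genes, on which RNA sequencing reads of 12 libraries had been counted, and all 9 passed the filter on low counts. The cells were H69, a line of normal human bile duct epithelium (cholangiocytes) immortalised with a viral large T antigen. There were 4 groups of 3 libraries: TGFβ + Aramchol, TGFβ alone at 10 ng/mL, Aramchol alone at 30 µM, and vehicle. Every group had first been kept without serum for 6 h and was then treated overnight in medium that also lacked serum. No group thus shows the genes in cells with serum, and growth was not measured. The cytokine TGFβ makes epithelial cells lay down matrix and lose their epithelial features. Aramchol joins a bile acid (cholic acid) to a saturated fatty acid (arachidic acid) and inhibits stearoyl-CoA desaturase, an enzyme of fatty acid metabolism. The labels do not say whether the 3 libraries of a group came from separate cultures, so the p-values reflect only library-to-library spread, part or all of which may be technical.

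In this pathway a TGFβ dimer brings type II and type I receptor kinases together, the type I receptor phosphorylates SMAD2 and SMAD3, and these join SMAD4 and act on genes in the nucleus. The inhibitors work at each level. BAMBI is a receptor-like protein without a kinase domain, PMEPA1 and LDLRAD4 are membrane proteins that keep SMAD2 and SMAD3 from the receptor, and SMAD7 occupies the receptor and brings in the ubiquitin ligases SMURF1 and SMURF2, while SKI, SKIL (SnoN) and TGIF1 are nuclear corepressors that bind SMAD complexes. Several of them are themselves SMAD target genes, which is why they are spoken of as feedback inhibitors, and in bile duct epithelium TGFβ is known for its part in ductular reaction and fibrosis.

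SMAD3 and SMAD4 recognise the letters CAGAC in DNA. These letters are shown in place in stretches before a start of the 3 members with the largest fold changes under TGFβ. Each stretch is the 250 bases before a RefSeq transcription start on GRCh38.p14, written 5′ to 3′ on the strand of the gene. Where a gene has several starts, the stretch shown holds no annotated exon base and the most CAGAC sites. All 3 stretches lie inside the gene as counted, before an internal start and not before its outermost start. In the GENCODE 29 annotation no transcript starts at the PMEPA1 or LDLRAD4 start shown, and 1 starts at that of SMAD7. The stretch before the outermost SMAD7 start, with 2 CAGAC sites, was passed over because it lies in annotated exon bases. Capitals mark CAGAC, or CAGACA where the next base is A, and GTCTG or TGTCTG where the same letters lie on the opposite strand.
PMEPA1 chr20:57690687-57690936 minus strand: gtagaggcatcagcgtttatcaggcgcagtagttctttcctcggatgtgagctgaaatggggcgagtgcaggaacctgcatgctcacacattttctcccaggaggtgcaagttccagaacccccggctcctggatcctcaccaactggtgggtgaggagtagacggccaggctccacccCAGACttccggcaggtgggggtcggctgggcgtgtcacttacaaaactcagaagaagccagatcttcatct
LDLRAD4 chr18:13277112-13277361 plus strand: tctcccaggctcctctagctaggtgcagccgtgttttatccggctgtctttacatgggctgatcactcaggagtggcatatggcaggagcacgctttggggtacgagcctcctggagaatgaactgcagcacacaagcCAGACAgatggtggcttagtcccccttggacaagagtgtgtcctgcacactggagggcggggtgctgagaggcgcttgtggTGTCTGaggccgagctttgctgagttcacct
SMAD7 chr18:48949334-48949583 minus strand: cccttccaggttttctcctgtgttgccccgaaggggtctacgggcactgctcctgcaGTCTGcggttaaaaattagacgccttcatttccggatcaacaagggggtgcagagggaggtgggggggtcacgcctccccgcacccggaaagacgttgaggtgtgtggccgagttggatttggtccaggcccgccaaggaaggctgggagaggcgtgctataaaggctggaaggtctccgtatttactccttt

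The site of PMEPA1 has its first base 71 bases before the start. LDLRAD4 holds CAGACA with its first base 112 bases before the start and a further CAGACA on the opposite strand, whose leftmost base is 31 bases before it. SMAD7 holds CAGAC on the opposite strand, 193 bases before the start. Over windows from 250 bases before to 50 bases after each start, read on both strands, 8 of the 9 members were matched by symbol in the RefSeq table used, with 27 windows. CAGAC was found in 20 of these 27 windows and in all 8 members, against 45.3% of all 35116 windows and 13649 of the 27305 genes in that table. CAGACA, whose sites are also CAGAC sites, was found in 10 member windows and in 4 members (SMURF2, PMEPA1, TGIF1 and LDLRAD4), against 16.9% of all windows and 19.9% of all genes. The palindrome GTCTAGAC was in none of the 27 windows and in 0.202% of all windows. Members with many starts have more windows in which letters can fall, and windows that overlap can hold the same site, as in TGIF1. TGIF1 and LDLRAD4 had 7 and 9 of the 27 windows, and 5 and 6 of the 20 with CAGAC. A match is letters in a window and not a bound site, and which start the H69 cells use was not measured.

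Total counts per library ran between 52279922 and 70339925, and mitochondrially encoded genes took 7.81 to 9.45% of them. Values are given as CPM, counts brought to a common library total after scaling for composition, and 3 counts, the most that an observed count of 0 allows, correspond to 0.0410 to 0.0548 CPM on this scale. These floors cover counting error only. On the first principal component of all genes (58.8% of the variance) the 6 libraries with TGFβ lay on 1 side and the 6 without it on the other. The libraries numbered 3 lay apart from the others of their group on the third component (6.68%), and vehicle replicate 3 lay at -5.33 on the second, where the other vehicle libraries lay at 24.8 and 27.3 and the Aramchol libraries between -15.6 and -10.1. Of 10 cholangiocyte markers, 6 passed the filter, KRT7, KRT19 and EPCAM among them, while CFTR, SPP1 and SCTR had at most 10 counts in any library. The summed level of the cholangiocyte markers was 748 to 922 CPM with TGFβ + Aramchol, 907 to 1057 CPM with TGFβ, 438 to 621 CPM with Aramchol and 316 to 764 CPM with vehicle. The summed level of 5 fibroblast markers was 161 to 193 CPM with TGFβ + Aramchol and 215 to 262 CPM with TGFβ, against 58.0 to 66.4 CPM with Aramchol and 62.1 to 69.9 CPM with vehicle. For 6 hepatocyte markers it was 2.71 to 5.72, 4.89 to 9.53, 0.675 to 0.752 and 0.431 to 0.735 CPM in the same order, with TTR at 0 in every library. For 4 endothelial markers it was 8.06 to 10.6, 6.89 to 9.56, 13.7 to 15.0 and 8.47 to 13.3 CPM, and for 5 leukocyte markers, with CD3E at 0 in every library, 20.3 to 21.4, 24.7 to 28.2, 29.1 to 29.8 and 28.6 to 35.1 CPM. Within that leukocyte sum CSF1R ran from 19.5 to 22.3 CPM with TGFβ and from 0.547 to 0.745 CPM with vehicle, while CD14 ran from 5.22 to 5.96 CPM with TGFβ and from 27.9 to 34.3 CPM with vehicle, and both differences were called. The cholangiocyte sum was mostly KRT7, at 938 CPM on average with TGFβ and 552 CPM with vehicle. Of the 6 cholangiocyte markers tested, 3 were called higher with TGFβ than with vehicle and 3 lower, KRT19 and EPCAM among the lower. The fibroblast sum was mostly PDGFRB (205 and 47.7 CPM), and of the 5 markers 3 were called higher and 1 lower. With TGFβ the hepatocyte sum was mostly HNF4A (6.81 CPM on average). The part of these markers in the results on the 9 genes was not tested, and in bulk RNA fewer cells of a type cannot be told apart from less RNA per cell.

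TGFβ against vehicle asks how the inhibitors respond to the cytokine. In this contrast 8 of the 9 genes rose at an adjusted p under 0.05, and none fell. The share of all 21567 genes tested that rose was 18.9%, and the share that fell was 18.1%. The median log2 fold change was 1.38 over the 9 genes and -0.03 over all genes tested. The rises ran from 1.36-fold for TGIF1 to 18.4-fold for PMEPA1, and BAMBI was the member that did not pass. Since the 9 were chosen as known feedback genes with earlier results of these data in view, the count describes them and is not independent evidence for their class.

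**Figure D1:**
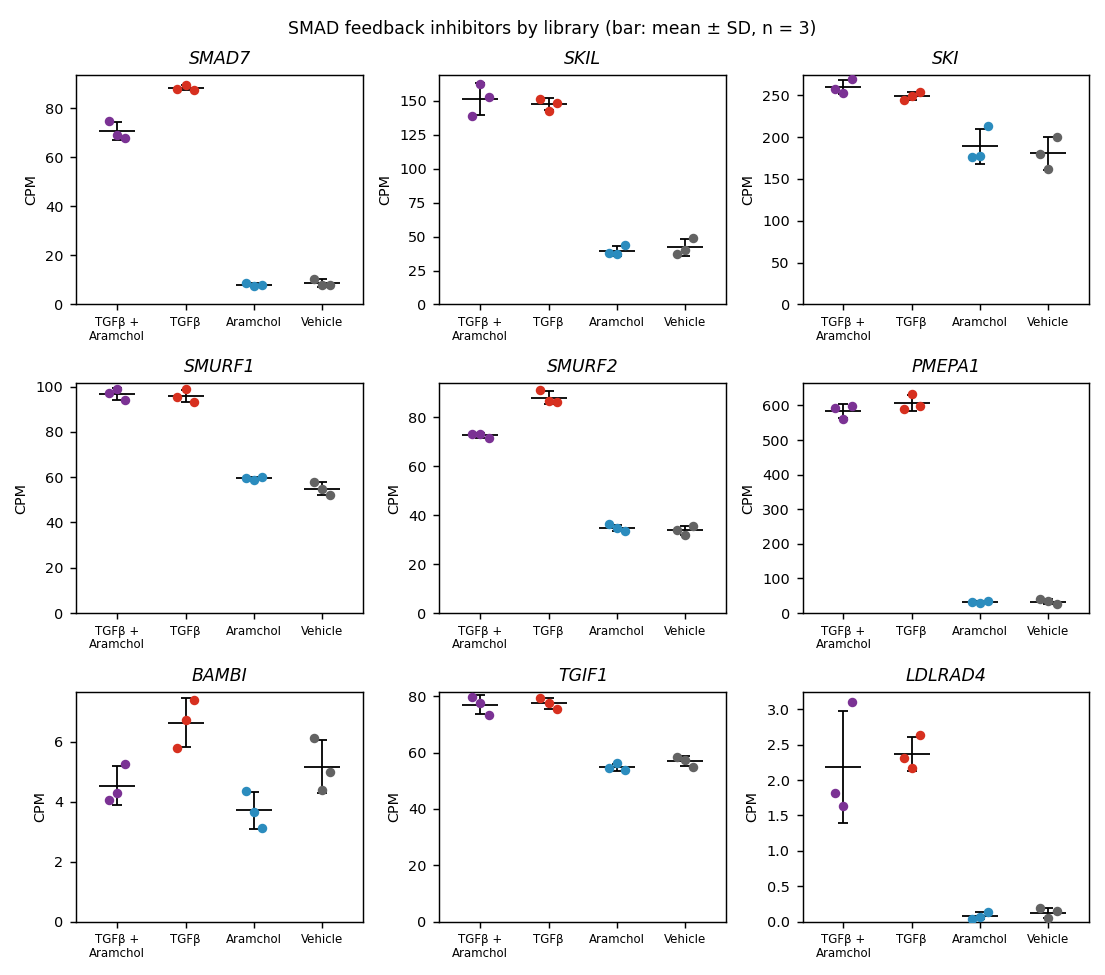
Level of each of the 9 genes in every library, in CPM on a linear axis that starts at 0, with groups in the order TGFβ + Aramchol, TGFβ, Aramchol and vehicle; points are libraries and bars are mean ± SD (n = 3). The 6 libraries with TGFβ lie above the 6 without it in every panel but that of BAMBI, and the SMAD7, SMURF2 and BAMBI libraries with TGFβ + Aramchol lie below those with TGFβ alone.

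SMAD7 (ENSG00000101665, chromosome 18, 48919853 to 48950965, minus strand, GRCh38), the inhibitory SMAD, had 88.0, 89.7 and 87.6 CPM with TGFβ, against 10.5, 7.76 and 8.04 CPM with vehicle. The groups lay far apart, and the libraries with TGFβ averaged 88.4 ± 1.09 CPM (SD, n = 3). The difference was 10.1-fold (log2 3.34, SE 0.0963, edgeR adjusted p = 1.52e-12).

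Both ubiquitin ligases rose. SMURF2 (ENSG00000108854, chromosome 17, 64542282 to 64662307, minus strand) had 91.0, 86.6 and 86.1 CPM with TGFβ, against 34.0, 32.0 and 35.5 CPM with vehicle, a 2.60-fold difference (log2 1.38, SE 0.0537, adjusted p = 2.26e-11). SMURF1 (ENSG00000198742, chromosome 7, 99027440 to 99144108, minus strand) had 95.3, 98.9 and 93.3 CPM with TGFβ and 57.8, 55.0 and 52.0 CPM with vehicle, a 1.75-fold difference (log2 0.80, SE 0.0507, adjusted p = 4.56e-09). In neither gene did the groups overlap. Per kilobase of summed exon, the level of SMURF1 was above that of SMURF2 both with TGFβ (15.3 and 12.2 CPM per kb) and with vehicle (8.74 and 4.69 CPM per kb).

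The 3 nuclear corepressors also rose, SKIL the most. SKIL (ENSG00000136603, chromosome 3, 170357678 to 170396835, plus strand) had 151, 142 and 148 CPM with TGFβ, against 37.0, 40.2 and 48.7 CPM with vehicle, a 3.51-fold difference (log2 1.81, SE 0.0928, adjusted p = 4.47e-10). Its relative SKI (ENSG00000157933, chromosome 1, 2227388 to 2310213, plus strand) had 244, 249 and 254 CPM with TGFβ and 179, 162 and 200.5 CPM with vehicle, a 1.38-fold difference (log2 0.47, SE 0.0787, adjusted p = 0.000208). The spread of SKI was wide with vehicle, where replicate 3 was the highest, as it was in each of the 4 groups, and the groups still did not overlap. TGIF1 (ENSG00000177426, chromosome 18, 3411608 to 3459978, plus strand), a homeodomain corepressor, had 79.4, 77.5 and 75.6 CPM with TGFβ against 58.4, 57.4 and 54.9 CPM with vehicle, a 1.36-fold difference with tight groups (log2 0.45, SE 0.0502, adjusted p = 3.41e-06).

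The 2 membrane proteins that bind SMAD2 and SMAD3 had the largest folds, at very different levels. PMEPA1 (ENSG00000124225, chromosome 20, 57648392 to 57711536, minus strand) had 589, 634 and 598 CPM with TGFβ, against 39.1, 34.7 and 24.9 CPM with vehicle. This was an 18.4-fold difference (log2 4.20, SE 0.125, adjusted p = 1.53e-12), and the lowest vehicle library was replicate 3. LDLRAD4 (ENSG00000168675, chromosome 18, 13217498 to 13652755, plus strand) had 2.32, 2.16 and 2.63 CPM with TGFβ, against 0.186, 0.0494 and 0.144 CPM with vehicle. Those vehicle values are 12, 3 and 10 counts, so replicate 2 stood at the floor of 3 counts, and the fitted 18.2-fold difference has wide 95% limits of 10.6 to 31.4 (log2 4.19, adjusted p = 2.06e-07).

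BAMBI (ENSG00000095739, chromosome 10, 28677510 to 28682932, plus strand), the pseudoreceptor, was expressed at a low level, with 210 to 429 counts per library. It had 5.77, 6.73 and 7.39 CPM with TGFβ and 6.13, 4.38 and 4.99 CPM with vehicle. The groups overlapped through vehicle replicate 1, and the log2 difference of 0.36 had 95% limits of 0.03 to 0.69 and did not pass (adjusted p = 0.0824). Without vehicle replicate 1 it was called (adjusted p = 0.0279), while over 20 alternative fits the adjusted p ran from 0.0279 to 0.276.

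**Figure D2:**
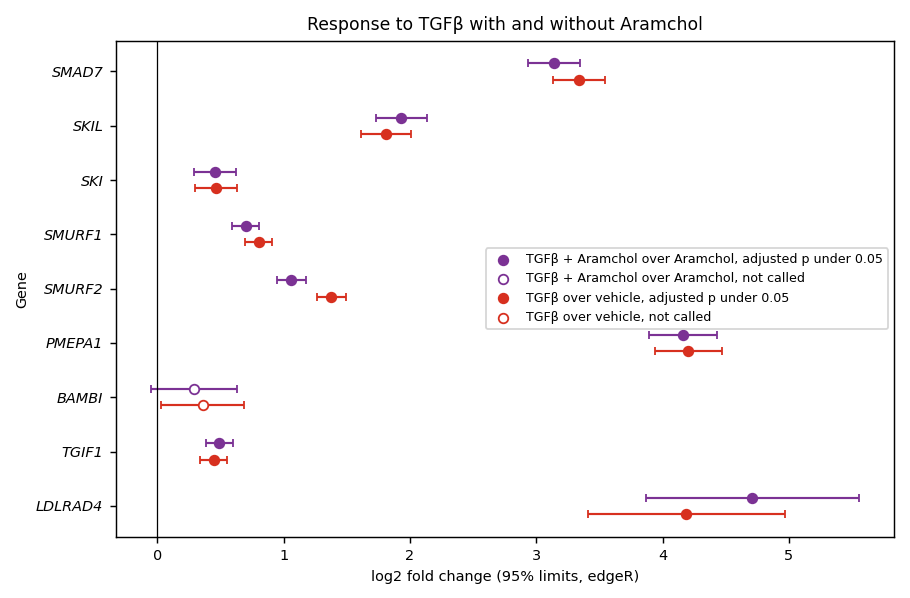
Log2 fold change of each of the 9 genes on TGFβ, with 95% limits, in cells that all had Aramchol (TGFβ + Aramchol over Aramchol) and in cells without it (TGFβ over vehicle). PMEPA1, LDLRAD4 and SMAD7 lie at 3.14 or above in both contrasts, and the limits of BAMBI cross 0 in cells with Aramchol.

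Addition of Aramchol to TGFβ asks whether the compound alters the inhibitors in stimulated cells. SMURF2 was the 1 member called, and it was lower with TGFβ + Aramchol. Of all genes tested, 2.25% were called in either direction and 1.36% were called lower. The levels of SMAD7, SMURF2 and BAMBI were lower in all 3 libraries with TGFβ + Aramchol than in any with TGFβ, which is 3 of 9 members against 12.2% of all genes tested. The median log2 difference was -0.06 over the 9 genes and -0.00 over all genes.

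SMURF2 had 73.3, 73.2 and 71.5 CPM with TGFβ + Aramchol, against 91.0, 86.6 and 86.1 CPM with TGFβ. Each group was tight and the groups did not meet. The level was 1.21-fold lower (log2 -0.28, SE 0.0523, 95% limits -0.39 to -0.16, edgeR adjusted p = 0.0156). The log2 difference lay between -0.30 and -0.25 in 20 alternative fits. The call ended without TGFβ replicate 1 (adjusted p = 0.0753), TGFβ replicate 2 (0.0590), TGFβ + Aramchol replicate 1 (0.0667) or TGFβ + Aramchol replicate 2 (0.0640), and adjusted p ran from 6.67e-05 to 0.0753 over all 20.

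SMAD7 had 74.8, 69.3 and 67.9 CPM with TGFβ + Aramchol, against 88.0, 89.7 and 87.6 CPM with TGFβ. The groups did not overlap, but the lower level did not pass (log2 -0.32, SE 0.0850, 95% limits -0.50 to -0.14, adjusted p = 0.0628). It was called in 7 of 20 alternative fits, which gave an adjusted p of 0.000331 to 0.174. BAMBI had 4.05, 4.28 and 5.26 CPM with TGFβ + Aramchol, against 5.77, 6.73 and 7.39 CPM with TGFβ, again with no overlap. Its 1.46-fold lower level did not pass either (log2 -0.55, SE 0.156, 95% limits -0.88 to -0.22, adjusted p = 0.0805), and 6 of 20 alternative fits called it (0.00371 to 0.274). SMAD7, SMURF2 and BAMBI were all called, and lower, when a term was fitted for the libraries numbered 3, with adjusted p = 0.0102, 0.00228 and 0.0261 in that order.

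For the other 6 members the limits included 0, and they were widest for LDLRAD4. PMEPA1 had 593, 561 and 597 CPM with TGFβ + Aramchol against 589, 634 and 598 CPM with TGFβ, and its log2 difference was -0.06 (95% limits -0.29 to 0.17). SKIL had 139, 162 and 152 CPM with TGFβ + Aramchol against 151, 142 and 148 CPM with TGFβ (log2 0.04, 95% limits -0.15 to 0.23). In both genes the groups overlapped. The limits were -0.11 to 0.23 for SKI, -0.09 to 0.12 for SMURF1 and -0.12 to 0.10 for TGIF1. LDLRAD4 had 1.82, 1.64 and 3.10 CPM with TGFβ + Aramchol, replicate 3 being well above the others, against 2.32, 2.16 and 2.63 CPM with TGFβ, and its limits were wide (-0.67 to 0.45). The adjusted p of these 6 genes ran from 0.768 for SKI to 0.950 for TGIF1, which does not show that the levels were equal.

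**Figure D3:**
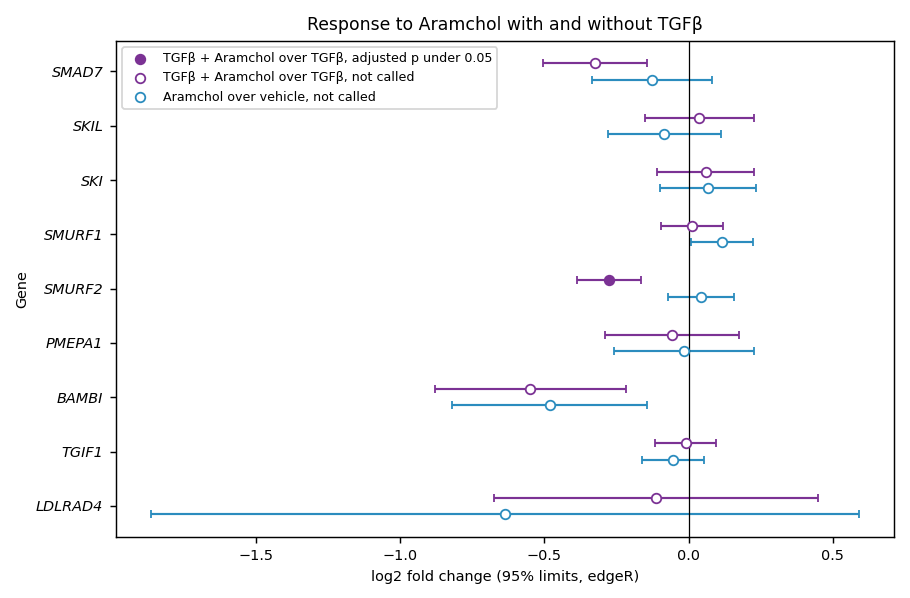
Log2 fold change of each of the 9 genes on Aramchol, with 95% limits, in cells with TGFβ (TGFβ + Aramchol over TGFβ) and in cells without it (Aramchol over vehicle). The limits of SMAD7, SMURF2 and BAMBI lie below 0 in cells with TGFβ, and in cells without TGFβ those of BAMBI lie below 0 and those of SMURF1 just above it.

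TGFβ + Aramchol against Aramchol asks how the inhibitors respond to the cytokine when the compound is present. The same 8 genes as in TGFβ against vehicle rose here, where 16.0% of all genes tested rose, and BAMBI again did not pass (log2 0.29, adjusted p = 0.192). LDLRAD4 had 1.82, 1.64 and 3.10 CPM with TGFβ + Aramchol, against 0.0365, 0.0684 and 0.134 CPM with Aramchol, of which the first is 2 counts and lies under the floor. PMEPA1 had 593, 561 and 597 CPM with TGFβ + Aramchol against 33.1, 29.9 and 34.7 CPM with Aramchol, a 17.9-fold difference. SMAD7 had 74.8, 69.3 and 67.9 CPM with TGFβ + Aramchol against 8.71, 7.44 and 7.99 CPM with Aramchol, which was 8.80-fold. SKIL was 3.82-fold and SMURF2 2.08-fold higher with TGFβ + Aramchol, and the log2 differences of SMURF1, TGIF1 and SKI were 0.70, 0.49 and 0.46. TGFβ + Aramchol against vehicle shares its libraries with the other contrasts. There the same 8 members rose, where 18.2% of all genes tested did, and BAMBI lay at log2 -0.19 (adjusted p = 0.384).

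The interaction tests whether the response to TGFβ differs with Aramchol, as the log2 response in cells with Aramchol minus that in cells without. No member was called by edgeR, against 0.0139% of all genes tested (3 genes, and 1137 at an unadjusted p under 0.05). SMURF2 had the smallest p of the 9, with a difference of -0.32 (SE 0.0749, 95% limits -0.48 to -0.16, unadjusted p = 0.000686, adjusted p = 0.513). TGFβ + Aramchol minus Aramchol gave SMURF2 a gain of 37.8 CPM, and TGFβ minus vehicle a gain of 54.1 CPM. DESeq2 called SMURF2 in the interaction (adjusted p = 0.0286), where it called 29 genes in all, and the adjusted p ran from 0.0286 to 1.00 over 19 alternative fits. The SMAD7 gain was 62.6 CPM with Aramchol present and 79.7 CPM without, and its interaction of -0.20 had 95% limits of -0.47 to 0.08. The limits of every member but SMURF2 reached both sides of 0.

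Aramchol against vehicle asks what the compound does alone. No member was called by edgeR or by DESeq2, where edgeR called 0.357% of all genes tested (77 genes, and 2533 at an unadjusted p under 0.05). At an unadjusted p under 0.05 stood BAMBI and SMURF1. BAMBI had 4.35, 3.66 and 3.12 CPM with Aramchol, against 6.13, 4.38 and 4.99 CPM with vehicle, and although the groups did not overlap the gap between the nearest libraries was small (log2 -0.48, unadjusted p = 0.00813, adjusted p = 0.248). SMURF1 had 59.6, 58.9 and 60.1 CPM with Aramchol against 57.8, 55.0 and 52.0 CPM with vehicle (log2 0.12, unadjusted p = 0.0367, adjusted p = 0.385). The log2 differences of the other 7 genes ran from -0.64 for LDLRAD4, with 95% limits of -1.86 to 0.59 at its few counts, to 0.07 for SKI. PMEPA1 averaged 32.6 ± 2.41 CPM with Aramchol and 32.9 ± 7.27 CPM with vehicle, and SKIL 39.6 ± 3.77 CPM and 42.0 ± 6.02 CPM (SD, n = 3 each).

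Per kilobase of summed exon, the order of the levels differed between groups. With TGFβ + Aramchol, PMEPA1 was at 102 CPM per kb, followed by SKI at 38.8, SKIL at 19.4, SMAD7 at 17.9, SMURF1 at 15.4, SMURF2 at 10.1, TGIF1 at 9.48, BAMBI at 2.12 and LDLRAD4 at 0.0609. With TGFβ alone the order was led by PMEPA1 at 106 and SKI at 37.3 CPM per kb, and SMAD7 at 22.4 stood above SKIL at 18.9. With Aramchol SKI led at 28.3 CPM per kb, SMURF1 followed at 9.47, and SMAD7 and BAMBI stood at 2.04 and 1.74. With vehicle SKI led at 27.0 CPM per kb and SMURF1 followed at 8.74. TGIF1 at 7.01 ± 0.220, PMEPA1 at 5.75 ± 1.27, SKIL at 5.39 ± 0.774 and SMURF2 at 4.69 ± 0.246 CPM per kb came next (SD, n = 3), of which PMEPA1 did not differ from TGIF1, SKIL or SMURF2, nor SKIL from SMURF2, beyond the spread. BAMBI at 2.42 and SMAD7 at 2.22 CPM per kb also lay within their spread with vehicle, as did SKIL and SMAD7 with TGFβ + Aramchol, and SMAD7 and BAMBI with Aramchol. LDLRAD4 was last in every group, on an annotated exon length of 35894 bases, far above the 2139 to 8121 bases of the others. Levels per kb, that of LDLRAD4 above all, depend on which annotated exons are used, and this was not measured. The order of the genes depends on it too.

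The 4 members whose exons share bases with another annotated gene on the opposite strand are uncertain to that extent, because no source used here gives the strand setting of the counting. SMURF1 shares 735 of its 6282 exon bases with TRRAP, a cofactor of histone acetyltransferases, whose level was not called in TGFβ against vehicle (log2 -0.13, adjusted p = 0.0735), though 4 of 20 alternative fits called it, as lower. SMURF2 shares 180 of 7213 bases with CEP95, which was not called (log2 0.09, adjusted p = 0.208). Both genes that LDLRAD4 overlaps had no count. PMEPA1 shares 343 of its 5732 bases with NKILA, a long noncoding RNA that is known to restrain NF-κB signalling.

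NKILA had 18.7, 19.4 and 21.7 CPM with TGFβ + Aramchol, against 30.7, 30.2 and 31.3 CPM with TGFβ, and was 1.54-fold lower with both agents (log2 -0.63, SE 0.121, adjusted p = 0.0174), whereas its overlapping neighbour PMEPA1 was not called. The call ended on leaving out any 1 of TGFβ replicates 1, 2 and 3 and TGFβ + Aramchol replicates 1 and 2 (adjusted p = 0.0660 to 0.0950). Whether the NKILA and PMEPA1 responses differ was not tested. With TGFβ alone NKILA averaged 30.7 ± 0.554 CPM, against 3.93 ± 1.03 CPM with vehicle (SD, n = 3 each; log2 2.97, adjusted p = 1.29e-10). Counts of the related loci SMURF2P1, TGIF1P1 and LDLRAD4-AS1 were at most 3 in any library.

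Beside the 9 genes, 14 of 15 genes listed as further negative regulators of SMAD signalling passed the filter. In TGFβ against vehicle 4 rose and 3 fell, with a median log2 fold change of 0.05, counts that lie near the shares of all genes tested that rose (18.9%) and fell (18.1%). SMAD6, the other inhibitory SMAD, averaged 19.9 ± 1.07 CPM with TGFβ and 7.90 ± 0.881 CPM with vehicle (log2 1.34, adjusted p = 5.13e-09). FKBP1A, which binds the type I receptor and holds it inactive, rose by log2 0.65 (adjusted p = 4.11e-08). CTDSPL, a phosphatase, fell to 40.8 ± 4.42 CPM with TGFβ, against 82.5 ± 4.37 CPM with vehicle (log2 -1.02, adjusted p = 3.22e-07). The list does not divide its genes by the SMADs they act on, so the fall of CTDSPL is not read as loss of a TGFβ inhibitor. In TGFβ + Aramchol against TGFβ 1 of the 14 was called, FKBP1A, which was lower (log2 -0.25, adjusted p = 0.0180). That call ended without TGFβ replicate 1 or 3 or TGFβ + Aramchol replicate 1 or 2 (adjusted p = 0.0668 to 0.0955).

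The ubiquitin regulators that favour the signal are RNF111 and the deubiquitinases USP4, USP11 and USP15. None of these 4 was called in TGFβ against vehicle, and the log2 fold changes ran from -0.12 to 0.11. Of them USP4 came nearest (log2 -0.12, adjusted p = 0.0622) and was called in 5 of 20 alternative fits. Of 7 corepressor partners of SKI, SKIL and TGIF1, 2 rose and 1 fell, where 18.9% of all genes tested rose and 18.1% fell. HDAC2, a histone deacetylase, rose (log2 0.28, adjusted p = 0.000450). NCOR1 fell (log2 -0.17, adjusted p = 0.0186), a call that ended without TGFβ replicate 2 (0.0783) or vehicle replicate 3 (0.0703) and with no filter on low counts (0.0563). None of the genes of these lists was called in TGFβ + Aramchol against TGFβ, though NCOR1 was in 1 alternative fit.

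Among receptors and SMAD transducers, 18 of 19 passed the filter, of which 4 rose and 6 fell with TGFβ (median log2 -0.14), where 18.9% and 18.1% of all genes tested did. The type I receptor TGFBR1 rose by log2 0.84 (adjusted p = 6.01e-09), while the coreceptor TGFBR3 fell to 4.78 ± 0.449 CPM with TGFβ, against 16.3 ± 0.772 CPM with vehicle (log2 -1.77, adjusted p = 1.25e-09). The coreceptor ENG averaged 38.4 ± 1.21 CPM with TGFβ and 11.9 ± 2.14 CPM with vehicle. ENG was also the 1 receptor called in TGFβ + Aramchol against TGFβ, at 23.7 ± 0.340 CPM with both agents (SD, n = 3; log2 -0.70, adjusted p = 0.00542).

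All 16 SMAD target genes that are not inhibitors rose with TGFβ, where 18.9% of all genes tested did, with a median log2 fold change of 3.0. These 16 were also chosen with earlier results of these data in view, so their count and median are not independent evidence. BHLHE40, a transcriptional repressor, rose by log2 2.69 (adjusted p = 1.82e-14), FN1, fibronectin, by 3.49 (4.07e-13) and TGFBI, a matrix protein, by 3.30 (1.53e-12). With TGFβ + Aramchol against TGFβ, 4 of the 16 fell (FN1, TGFBI, SNAI1 and TAGLN), at a median over the 16 of -0.28. Of all genes tested, 1.36% were called lower there. FN1 fell by 0.85 on the log2 scale (adjusted p = 0.000250) and TGFBI by 0.51 (adjusted p = 0.0112), and the TGFBI call ended without TGFβ replicate 3 or TGFβ + Aramchol replicate 1 or 2 (0.0519 to 0.0644). The 3 tested ID genes, which BMP signalling drives through SMAD1 and SMAD5, rose with TGFβ, ID3 by log2 1.35 (adjusted p = 3.05e-06), ID2 by 0.70 (0.000637) and ID1 by 0.46 (0.0245). The ID1 call ended without TGFβ replicate 2 (0.133) or vehicle replicate 3 (0.0852). None of the 3 was called in TGFβ + Aramchol against TGFβ, though ID3 (log2 -0.53, adjusted p = 0.0763) was called lower in 6 of 20 alternative fits and ID2 (log2 -0.48, adjusted p = 0.0784) in 4. In Aramchol against vehicle, 1 target gene was higher and 1 ID gene, ID3, was lower.

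**Figure D4:**
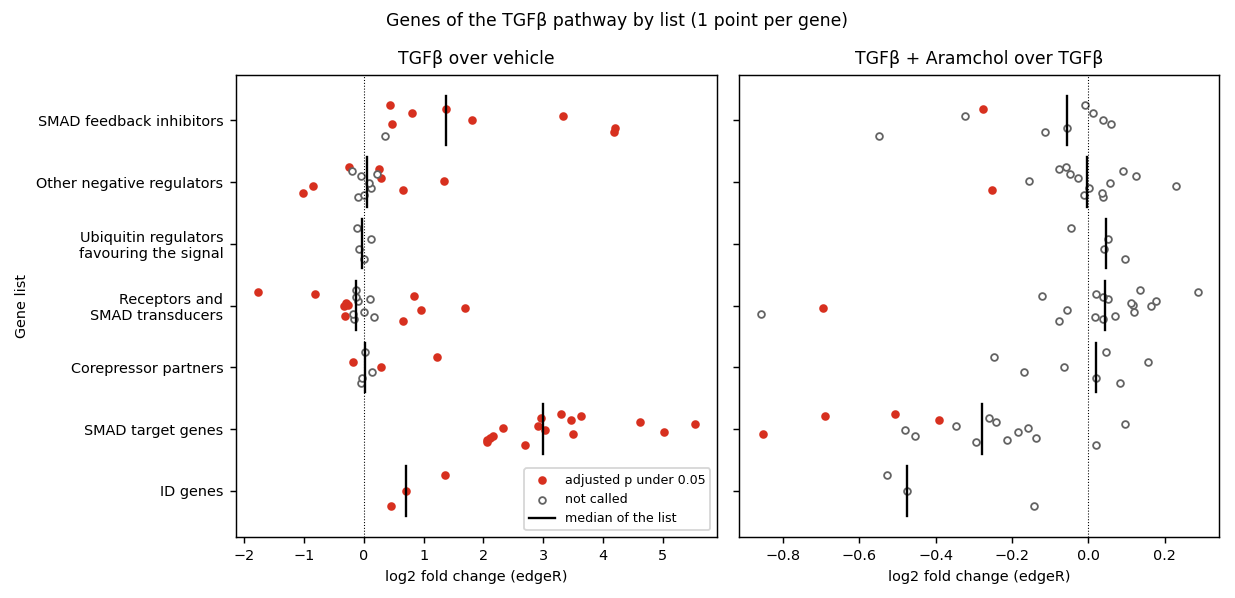
Log2 fold changes of the 9 genes and the other lists of the pathway, in TGFβ over vehicle and in TGFβ + Aramchol over TGFβ; each point is a gene, filled where the adjusted p is under 0.05, and black bars are medians. The 9 genes have a median of 1.38 in the first panel, below the 3.0 of the SMAD target genes, and medians of all lists lie between -0.48 and 0.05 in the second. All lists were chosen with earlier results of these data known.

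The genes most like each member in profile were found as those with the smallest root mean square difference between log2 CPM profiles, each centred on its own mean over the 12 libraries. For SMAD7, whose own profile had a root mean square of 1.63, they were TNS1 at 0.165 and SNAI1 at 0.167. For SMURF2 (own 0.619) they were BLOC1S2 at 0.0715 and MLXIP at 0.0736, and both lay lower with TGFβ + Aramchol than with TGFβ, by log2 -0.31 and -0.29. They were chosen for likeness over these same libraries, so their shared direction is not separate evidence on SMURF2. For SMURF1 (own 0.380) they were TRIO at 0.0457 and LAMB1 at 0.0465. SKIL (own 0.945) was nearest to PGM2L1 at 0.117 and AFAP1L2 at 0.122, SKI (own 0.253) to genes that include RASA1 at 0.0722, and TGIF1 (own 0.238) to OSBPL9 at 0.0495 and ZNF281 at 0.0528. PMEPA1 (own 2.10) was nearest to MDFI at 0.155 and APCDD1L-DT at 0.224, and BAMBI (own 0.351) to VASH2 at 0.137 and NDRG4 at 0.148. LDLRAD4 (own 2.16), which had few counts without TGFβ, was nearest to CTTNBP2 at 0.430 and DMBX1 at 0.448. Among the 9 genes, SKI and TGIF1 had the smallest difference, 0.128.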

How the data were processed

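RNA of 12 H69 libraries was extracted with Trizol and made into libraries with a DNA kit of IDT, per the labels' protocols. Per the submitters' processing notes, the authors used STAR 2.7.9a, GRCh38 and featureCounts of Subread, and the notes also name DESeq2. The deposited values are raw counts, whole reads assigned to each gene. No source used here gives the annotation release or the strand setting.

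After filterByExpr and TMM scaling, edgeR 4.0.16 (limma 3.58.1, R 4.3.3) fitted its quasi-likelihood model to all 12 libraries, 1 mean for each group, with Benjamini-Hochberg adjustment over 21567 genes. A gene was called at an adjusted p under 0.05. The common biological coefficient of variation was 8.90%. CPM used the same scaling, and intervals are the 95% limits of the fit. No 2 libraries of a group were duplicates.

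The 9 genes and all lists were chosen with earlier results of these data known, and lists are described by counts and medians with no set test. Named genes are the 9 members, the up to 3 genes of each list with the smallest p in TGFβ against vehicle and the 2 genes most like each member, and a few of these are not reported here. The further genes of the lists that were called with TGFβ + Aramchol, and those whose exons overlap a member, were named after their values were seen, as were the markers with the most or fewest counts. Promoter sequences came from RefSeq on GRCh38.p14, and exon overlap of the printed stretches was checked with GENCODE 29. Protein sequences were not used here. The alternatives were scaling by RLE or by the upper quartile, a filter that was stricter or left out, DESeq2 1.42.0, a replicate block, a term for the libraries numbered 3, only the groups compared, and each library left out in turn. Tables and figures used matplotlib 3.10.9, numpy 2.4.6 and pandas 2.3.3 under Python 3.11.15.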

Additional observations from a re-analysis of the deposited data

How the results depend on the processing

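In TGFβ against vehicle, TGFβ + Aramchol against Aramchol and TGFβ + Aramchol against vehicle, 8 members were called in each alternative, except that 9 were called in TGFβ against vehicle with no filter and without vehicle replicate 1; in Aramchol against vehicle 0 were called in each. In TGFβ + Aramchol against TGFβ the count of 1 became 3 (SMAD7, SMURF2 and BAMBI) with DESeq2, with no filter, with only the groups compared and with a term for the libraries numbered 3, and ran from 0 to 3 with a library left out (0 without TGFβ replicate 1 or 2 or TGFβ + Aramchol replicate 1 or 2, 2 without vehicle replicate 1, 3 without vehicle replicate 3). The count of 0 in the interaction became 1 (SMURF2) with DESeq2, and stayed 0 with each library left out. The cause of these changes was not tested. Over all genes, calls in TGFβ + Aramchol against TGFβ numbered 486, against 1031 with DESeq2, 1278 with no filter, 960 with only the groups compared and 1683 with the term for the libraries numbered 3; calls in Aramchol against vehicle numbered 77, against 364, 531, 5 and 538 in the same order. Of 1070 alternative values of single members, 1050 kept their side of the threshold, 16 came to pass it, 4 ceased to and no called value changed direction; 27 uncalled ones had the opposite sign. Depth limits LDLRAD4, at 2 to 12 counts per library without TGFβ.

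The replicate numbers were not taken to pair the libraries in the main fit. Same-numbered libraries of different groups had correlations of deviations of 0.00739 to 0.221. Those of libraries numbered 3 were 0.111 to 0.221, and those of a library numbered 3 with a differently numbered one were -0.146 to -0.0399. Between numbers 1 and 2 they were -0.0144 to 0.0907, against 0.00739 to 0.107 within those numbers. The libraries numbered 3 thus shared deviations that the main fit leaves in the spread. With the replicate block 3 members (SMAD7, SMURF2 and BAMBI) were called in TGFβ + Aramchol against TGFβ, with 1519 calls over all genes, and 464 in Aramchol against vehicle; the block changed the call of no other member in any contrast.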
